A study of Rattus norvegicus with 4 samples.

Results

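Terminal heart failure was compared with the double transgenic rat (dTGR) across all genes of 1 oligonucleotide array a side. The comparison took the array titled terminal heart failure and the array titled dTGR, which are 2 of the 4 arrays of the series, and used the 8740 of 8799 probe sets that are not controls. Each array had been hybridised with total RNA of rat left ventricle. The terminal group is labelled only as terminal heart failure, and its label names neither genotype, treatment nor age. The dTGR group carries human renin and human angiotensinogen as transgenes and was given no treatment that the labels name. The 2 arrays outside the comparison, used as context, were dTGR given losartan, which blocks the receptor for angiotensin II, and a Sprague Dawley control (SD control). One description of the transgenic rat, with hypertension, enlarged hearts and protein in the urine, stands with all 4 samples, the control included. The sources used here do not give ages, doses, the promoters of the transgenes or how many animals stand behind an array. The labels also do not say that the dTGR heart was compensated, and no measure of cardiac function comes with the arrays, so the group is called dTGR here.

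Human renin cleaves human angiotensinogen in these rats, and the resulting angiotensin II raises blood pressure and acts on the heart through its type 1 receptor. A pressure-loaded ventricle re-expresses fetal genes such as the natriuretic peptides, and a failing one can add stress responses in cardiomyocytes, infiltrating immune cells, matrix remodelling and a shift in fuel use. The comparison asked how the left ventricle in terminal heart failure differed from that of the dTGR.

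With 1 array a group there is no spread between replicates, so only the size of each difference is given and nothing was tested. The number of arrays sets the precision. The terminal and dTGR arrays differed in chip lot, run day and fluidics protocol, so these and the group cannot be told apart. The dTGR protocol recorded 0 first wash cycles and 0 seconds of first stain, against 10 cycles and 600 seconds on the terminal array. Of the 4 arrays, only dTGR had that protocol and only the terminal array had its run day. What sets either array apart from all the others therefore cannot be told apart from these. Intensities were scaled to the same trimmed mean, and values under 26.0, the 40th percentile of all values, were set to that floor. Deposited values from 1 to under 32, a range that holds the floor, appear to have had their decimals rewritten as months by a spreadsheet. The decimals of intensities quoted in that range are therefore uncertain. A gene was represented by its brightest probe set, and it counted as higher or lower at a difference of 2-fold or more, provided that 1 or both arrays exceeded the floor. Where 1 side lay under the floor, the fold is written as "at least". Of 4736 genes, 3604 exceeded the floor on 1 or both arrays and 2789 on both. In bulk tissue, fewer cells of a type and less RNA per cell cannot be told apart.

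Brightness itself differed between the arrays. The maximum intensity was 20728 on the terminal array, against 49747 on the dTGR array, and the 100 most intense probe sets held 31.8% of the terminal signal, against 46.3% of the dTGR signal. The median log2 difference over all genes, terminal minus dTGR, was -0.18, and it was -0.07 after quantile normalization and -0.06 after cyclic loess. It varied with level. With genes split into 10 bins of rising level, bins 2 and 3, with mean intensities from 31.8 to 47.9, had medians of -0.61 and -0.56. It was 0.08 in bin 9, and the 72 brightest genes had a median of -0.53, which was 0.03 after quantile normalization and -0.16 after cyclic loess. Quantile normalization gives equal ranks equal values, so genes at the top on both arrays move toward 0 by construction. Differences of the brightest genes and list medians against dTGR are therefore given with their values after quantile normalization where they are first described. The ratio of 3' to 5' signal, a sign of RNA integrity, was 1.28 on the terminal array and 1.73 on the dTGR array for Gapdh, and 1.63 and 2.07 for beta-actin. The part that protocol, lot or RNA integrity had in any difference was not tested.

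**Figure D1:**
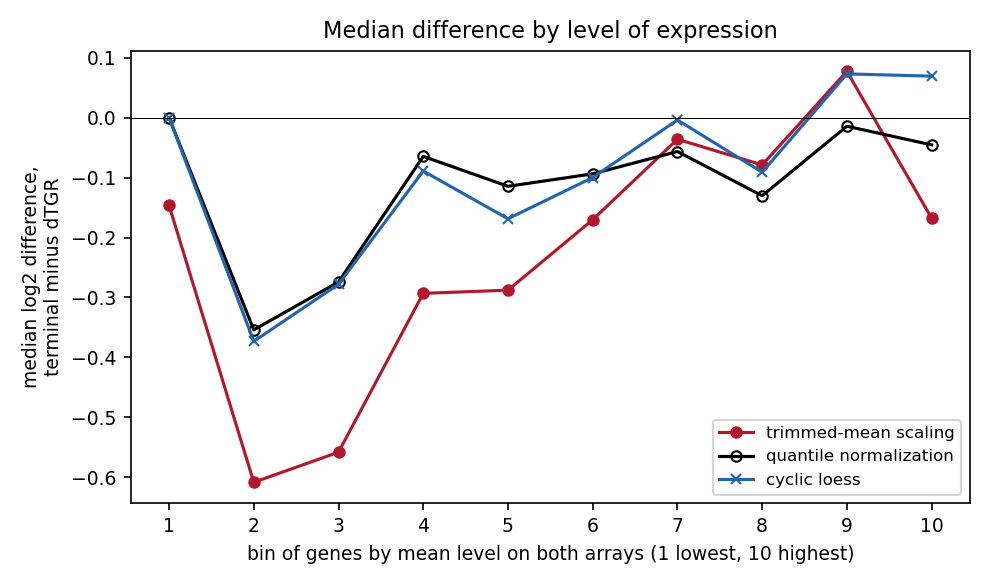
Median log2 difference (terminal minus dTGR, vertical axis) for genes in 10 bins of mean level (horizontal axis, lowest to highest), under the 3 normalizations. With trimmed-mean scaling bin 2 lay at -0.61 and bin 9 at 0.08, while after quantile normalization bin 2 lay at -0.35 and bin 9 at -0.014.

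Genes of stress, the acute phase and remodelling stood among the largest higher values. Among the largest values in both directions were genes that lay near the floor on 1 of the arrays. In all, 277 of the 3604 genes (7.69%) stood higher by 2-fold or more on the terminal array and 426 (11.8%) stood lower, and among the 2789 that exceeded the floor on both arrays the counts were 193 (6.92%) and 255 (9.14%). The counts given for gene lists below are to be read against the shares of 7.69% and 11.8%. Higher genes made up 39.4% of the calls over the 3604 genes, and 49.9% of the calls after quantile normalization, with 333 higher and 334 lower. After cyclic loess they made up 52.7%. Scaling both arrays to the same median, which set the median of all genes at 0.09, turned the split to 442 higher and 225 lower. Where a higher gene had further probe sets above the floor, all of them lay on the same side in 63 of 104 genes, and for lower genes in 75 of 105. The SD between probe sets of a gene was 0.56 on the log2 scale.

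Hspa1a, the stress-inducible chaperone Hsp70, had the largest higher value among genes with no probe set of the opposite sign. Its intensity was 1829.7 on the terminal array, against 107 on the dTGR array, and it was 111 with losartan and 57.9 in SD control. It was thus 17.1-fold higher and stood high on the terminal array alone, with the others between 57.9 and 111. Lcn2, whose product binds bacterial iron carriers, had 1467 on the terminal array, against 154 on the dTGR array, and 147 and 99.1 on the losartan and SD control arrays. Reg3b, a lectin that injured tissue secretes, had 3849 on the terminal array, against 503 on the dTGR array, and 27.1 and 41.2 on the losartan and SD control arrays. Lcn2 was thus 9.50-fold higher and Reg3b 7.65-fold higher. Reg3b was also higher in dTGR than on the losartan and SD control arrays, whereas Lcn2 was at most 154 on all arrays but the terminal one. The phospholipases Plb1 (8.20-fold) and Pla2g4a (7.93-fold) lay between Lcn2 and Reg3b in size. The other probe set of Plb1 was higher by 1.30 on the log2 scale. Below Reg3b came the transglutaminase Tgm1 (6.41-fold), the sulfotransferase Sult1a1 (4.97-fold) and Cux1 (5.16-fold), a homeobox transcription factor. Plb1 and Cux1 had 33.0 and 32.4 on the dTGR array, close to the floor, so their folds are uncertain. Of the genes above the floor on both arrays and with no probe set of the opposite sign, all 15 with the largest higher values, which also include Slc2a1, Errfi1, Pdk4, Lox, Plat, Klf6 and Fos below, were highest of the 4 arrays in terminal heart failure, and 7 of them were lowest in dTGR.

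**Figure D2:**
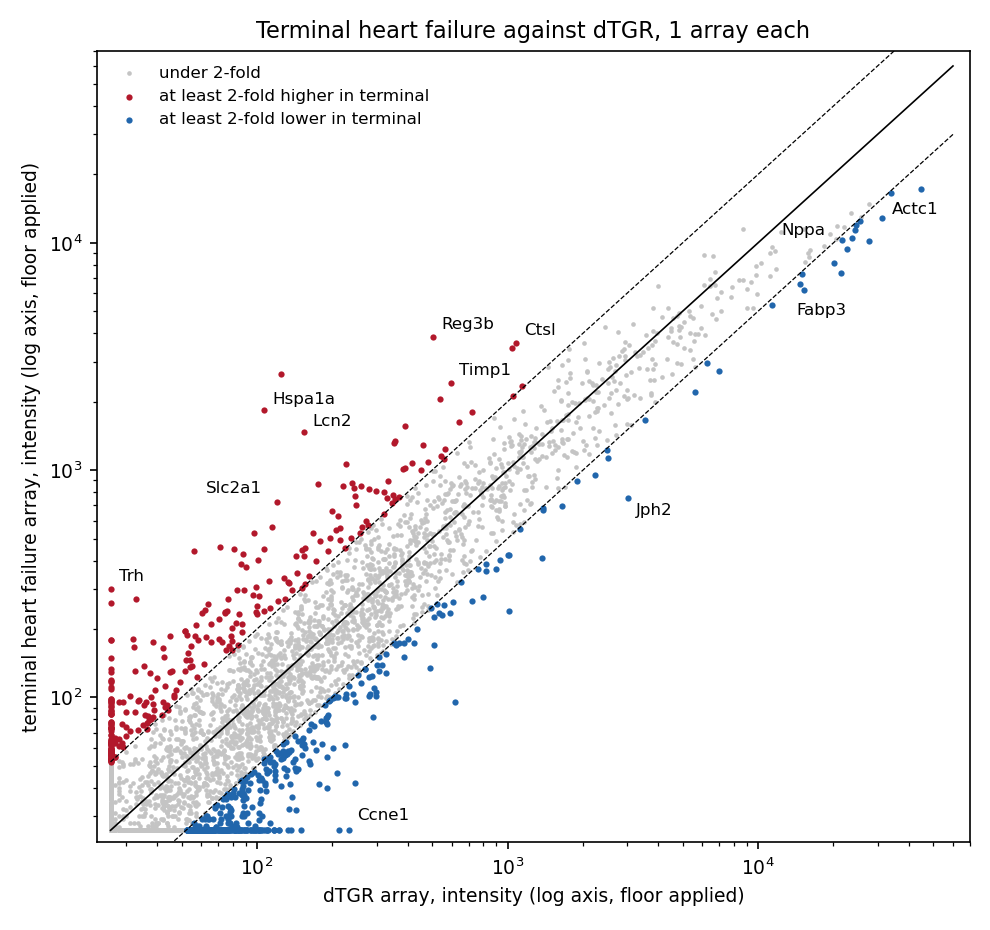
Intensity of each gene on the terminal array (vertical axis) against the dTGR array (horizontal axis), both on log axes, with the 2-fold lines and the floor of 26.0. Genes at least 2-fold higher (277) and lower (426) are coloured, and Hspa1a (1829.7 terminal, 107 dTGR) and Lcn2 (1467 terminal, 154 dTGR) lie far above the diagonal.

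A few heat shock genes were higher by a large amount while the list median lay near 0. Of 23 heat shock proteins and co-chaperones above the floor, 5 stood higher by 2-fold or more and 1 lower, and the list median was 0.11, with 0.19 after quantile normalization. Dnajb1, a co-chaperone that works with Hsp70, had 543 on the terminal array, against 206 on the dTGR array. Dnaja1, another Hsp70 partner, had 797 on the terminal array, against 322 on the dTGR array. The other probe set of each was higher too, by 1.18 and 0.95 on the log2 scale. Hsph1, a nucleotide exchange factor of Hsp70, was 2.43-fold higher (351 on the terminal array and 144 on the dTGR array), but its other probe set had a log2 difference of -0.89. Hspa4, of the same family, was 2.42-fold higher, but with 176 it lay below the losartan array (247). Small heat shock proteins lay on both sides. Hspb6 was 2.45-fold lower, with a log2 difference of -1.30 that was -0.37 after quantile normalization, and Cryab had a log2 difference of -0.82 that was 0.19 after it. Hspb1, of the same family, had 8746 on the terminal array, against 6586 on the dTGR array, a log2 difference of 0.41 (0.90 after quantile normalization), while its further probe sets spanned -1.03 to 0.77. Hspb2, another member, had a log2 difference of 0.66. The probe set of Hspa1a shares sequence with near-identical members of its family, so which of them it read cannot be told apart.

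Heat shock factors bind repeats of a short unit, and the search here was for TTC, GAA and TTC in a row with any 2 bases between them, on both strands. Among 33469 RefSeq promoter windows (GRCr8, from 250 bases before to 50 after the gene's start), 0.798% held them. Of 18 heat shock list members with a window, 5 did, and of the 5 higher members 2 did, Hsph1 and Dnaja1, which are shown for that reason with the matching letters in capitals. The remaining matches were in Hspd1, Hspe1 and Serpinh1, with log2 differences of -0.30, 0.17 and 0.09. The windows of Hspd1 and Hspe1 overlap and hold the same stretch, which was counted for both. No match lay in the windows of Hspa1a, Dnajb1 and Hspa4 or of Hspb6, the lower member, and no match overlapped the other motifs searched. Only the first listed start of each gene was searched, and sites outside its window were not seen. The lack of a match for Hspa1a therefore does not show that the gene lacks such an element.
Hsph1, chr12:10427118-10427417, plus strand: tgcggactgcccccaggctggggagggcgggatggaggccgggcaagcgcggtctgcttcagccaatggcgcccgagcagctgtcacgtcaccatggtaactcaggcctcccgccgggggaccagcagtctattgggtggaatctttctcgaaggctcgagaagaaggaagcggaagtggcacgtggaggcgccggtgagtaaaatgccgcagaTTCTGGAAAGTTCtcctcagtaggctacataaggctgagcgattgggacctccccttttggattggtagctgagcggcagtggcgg
Dnaja1, chr5:60638154-60638453, plus strand: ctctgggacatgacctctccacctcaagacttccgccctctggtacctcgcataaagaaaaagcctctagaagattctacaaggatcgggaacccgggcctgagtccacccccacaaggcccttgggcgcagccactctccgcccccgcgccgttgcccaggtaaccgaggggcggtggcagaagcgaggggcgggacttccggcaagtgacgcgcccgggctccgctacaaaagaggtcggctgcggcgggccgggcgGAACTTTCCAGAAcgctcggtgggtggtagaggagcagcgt

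Chaperones of the endoplasmic reticulum lay above the median of all genes. Of 14 members, 1 was at least 2-fold higher and 0 were lower, and the median was 0.31 (0.30 after quantile normalization), against -0.18 over all genes. Pdia3, a disulfide isomerase, was the member past 2-fold (851 on the terminal array and 259.5 on the dTGR array), but its other probe set had -1.13 on the log2 scale. Hyou1 and Hsp90b1, chaperones of that compartment, had log2 differences of 0.74 and 0.48. Ppp1r15a, which restarts translation after stress, had 0.61.

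Secreted acute phase genes held several of the largest higher values, while 1 fibrinogen chain was lower. Of 17 genes above the floor, 6 stood higher by 2-fold or more and 2 were lower, with a median of 0.33 (0.50 after quantile normalization). Timp1, an inhibitor of matrix metalloproteinases, had 2416 on the terminal array, against 595 on the dTGR array, and its other probe set was higher by 2.45 on the log2 scale. Serpina3n, a protease inhibitor of the acute phase, had 133 on the terminal array, against 17 on the dTGR array, and was at least 5.12-fold higher. Both were highest of the 4 arrays in terminal heart failure, and Timp1 was also higher in dTGR (595) than with losartan (285) and in SD control (193). Orm1, the acid glycoprotein, was 2.80-fold higher and Serping1, the complement C1 inhibitor, 2.07-fold higher. On the lower side, Itih3 and Fga, an inter-alpha-trypsin inhibitor chain and a fibrinogen chain, lay under the floor on the terminal array and were at least 2.97-fold and at least 2.81-fold lower. Agt, the rat angiotensinogen, had 39.6 on the terminal array and 37.7 on the dTGR array, both near the floor. Orm1 and Serping1 lie outside the rule for named genes, and, like the further list members named below, were chosen after their values were seen where the rule did not name them.

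C/EBP beta and delta are transcription factors of the acute phase, and both of their genes were higher. Cebpb had 849 on the terminal array, against 221 on the dTGR array, and was 3.85-fold higher with a second probe set at 0.70 on the log2 scale. Cebpd had 444 on the terminal array, against 151 on the dTGR array, and was 2.94-fold higher, though 1 of its other probe sets had -0.64. Socs3, a feedback inhibitor that interleukin 6 family signalling induces, had 149 on the terminal array, against 21 on the dTGR array, and was at least 5.71-fold higher. Of the 17 genes of that signalling list, 5 were higher and 4 lower. Jak2, a kinase of these receptors, was 2.18-fold higher, and Il6r, the interleukin 6 receptor, was 2.16-fold higher. Lif and Ctf1, the ligands leukemia inhibitory factor and cardiotrophin 1, were at least 4.14-fold and 2.07-fold lower, and so were the receptor Cntfr (3.06-fold) and Stat5a (at least 2.41-fold), a transcription factor of cytokine signalling. Each of these 4 was dim, with 62.7 to 161 on the dTGR array, where it was highest of the 4 arrays. The list median of -0.39 was -0.13 after quantile normalization.

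The C/EBP letters TTGCNNAA, searched on both strands, stood in 10.6% of all promoter windows and in 5 of 12 acute phase members with a window. Of the 5 higher members with a window, 2 held them, and of the 2 lower members 1 did, Fga. The 2 higher ones, Lcn2 and Orm1, are shown with the match in capitals, and those matches overlapped no other motif searched. The windows of Reg3b, Serpina3n and Timp1 did not hold these letters.
Lcn2, chr3:36081731-36082030, minus strand: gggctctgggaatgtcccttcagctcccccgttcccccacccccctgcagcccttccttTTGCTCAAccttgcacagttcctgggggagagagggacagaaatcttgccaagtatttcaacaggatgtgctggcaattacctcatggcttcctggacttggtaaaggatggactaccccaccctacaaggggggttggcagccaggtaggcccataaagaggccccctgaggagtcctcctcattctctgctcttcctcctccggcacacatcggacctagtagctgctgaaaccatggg
Orm1, chr5:81788259-81788558, plus strand: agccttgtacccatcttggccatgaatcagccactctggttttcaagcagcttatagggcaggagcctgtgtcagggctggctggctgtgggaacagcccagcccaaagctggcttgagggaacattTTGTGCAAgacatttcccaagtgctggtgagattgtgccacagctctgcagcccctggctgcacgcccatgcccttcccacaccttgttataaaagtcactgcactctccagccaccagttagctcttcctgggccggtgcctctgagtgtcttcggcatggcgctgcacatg

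Some markers of innate immune cells were higher beside the acute phase genes. Of 8 macrophage markers above the floor, 3 stood higher by 2-fold or more and 1 lower, with a median of 0.87 (0.85 after quantile normalization) and a summed intensity over the 10 markers on the array of 5244 on the terminal array and 3705 on the dTGR array. Lgals3, the gene of galectin 3, had 556 on the terminal array, against 214 on the dTGR array. Lyz2, a lysozyme of macrophages, had 2122 on the terminal array, against 1047 on the dTGR array. C1qb, a chain of complement C1q, had 1186 on the terminal array, against 626 on the dTGR array, and was 1.90-fold higher. Lgals3 and Lyz2 were 2.60-fold and 2.03-fold higher, whereas Cd74, which chaperones class II molecules, was 2.07-fold lower. C1qc, another chain, was 2.72-fold higher, but its other probe set had -0.50 on the log2 scale. Cd14, a receptor of monocytes, had a log2 difference of 0.10. Of 8 neutrophil markers on the array, 5 lay above the floor, with 3 higher and 1 lower, and the sum was 1719 on the terminal array and 373 on the dTGR array, most of it from Lcn2, which other tissues also express. S100a8 and S100a9, the calprotectin chains of neutrophils, had 90.5 and 77.9 on the terminal array, against 42.8 and 8.03 on the dTGR array. The list's other members above the floor lay on the other side. Cxcr2, a chemokine receptor of neutrophils, was under the floor with 1.09 on the terminal array, against 59.3 on the dTGR array, and was at least 2.28-fold lower, and Il1r2, a decoy receptor of interleukin 1, had a log2 difference of -0.65. Cxcr1, a related chemokine receptor of neutrophils that is not on the list, had 61.7 on the terminal array, against 225 on the dTGR array, and was 3.64-fold lower and lowest of the 4 arrays. Mmp8 and Mmp9, proteases stored in neutrophil granules, lay under the floor on both arrays. The part that infiltrating cells had in the acute phase values was not tested.

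Cytokine, chemokine and adhesion genes split. Of 27 genes, 5 were higher and 2 lower, with a median of 0.10 (0.45 after quantile normalization). Ptgs2, the inducible cyclooxygenase, was at least 2.21-fold higher, Pecam1, an adhesion protein of endothelium, 2.20-fold higher, and Selp, the P-selectin gene, 2.13-fold higher. Ccl5, a chemokine for T cells, was at least 2.61-fold lower (11.1 on the terminal array and 67.8 on the dTGR array), while Ccl2, a chemokine for monocytes, had a log2 difference of 0.95 (322 and 166). Ptgs2 stands beside Pla2g4a, the cytosolic phospholipase that frees its substrate, which had 442 on the terminal array, against 55.8 on the dTGR array. Pla1a, a phospholipase of phosphatidylserine, was at least 6.89-fold higher.

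Immediate early genes, which respond within minutes to growth factors and stress, had a median above that of all genes. Of 33 genes, 9 were at least 2-fold higher and 2 were lower, with a median of 0.51 (0.64 after quantile normalization). Fos, a subunit of the AP-1 factor, had 1061 on the terminal array, against 227 on the dTGR array, and its other probe sets were higher by 2.89 and 3.34 on the log2 scale. Klf6, a zinc finger factor, had 563 on the terminal array, against 115 on the dTGR array. Myc, a regulator of growth, had 207 on the terminal array, against 56.9 on the dTGR array. These 3 genes were highest of the 4 arrays in terminal heart failure, and the others ranged from 35.4 for Myc in SD control to 227 for Fos in dTGR. Arc was 3.54-fold higher, Atf3, a stress-induced repressor, 3.15-fold, Egr1 2.63-fold, and Crem, a factor of cAMP signalling, 2.57-fold, with the further probe sets of Egr1 and Crem on the same side. Ccn1, a matricellular protein, and Dusp6, a MAP kinase phosphatase, were the other higher members (at least 2.42-fold and 2.04-fold). Klf10 and Egr4 were 2.35-fold and 2.03-fold lower. Jun, another AP-1 subunit, had a log2 difference of 0.89, and Dusp1, a phosphatase of MAP kinases, had -0.34. Ifrd1, an interferon-related developmental regulator induced by growth factors, was at least 10.04-fold higher (261 on the terminal array and 19.99 on the dTGR array).

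Glucocorticoid responsive genes had the highest median of the 26 gene lists. Of 16 genes, 6 were higher and 1 was lower, and the median was 0.91 (0.81 after quantile normalization). Besides responsive genes, the list holds receptor genes and a gene of hormone activation, named below, and these are among the members counted. Of the 16 genes, 5 stand also on the immediate early list, and Cebpd, Nfkbia, Pdk4 and Cdkn1a on other lists, so the medians are not independent. Cdkn1a, the cyclin-dependent kinase inhibitor p21, had 179 on the terminal array, against 18.1 on the dTGR array, and was at least 6.90-fold higher, with a second probe set at 0.53 on the log2 scale. Errfi1, an inhibitor of the epidermal growth factor receptor, had 181 on the terminal array, against 31.9 on the dTGR array. Pdk4, a kinase that shuts down pyruvate dehydrogenase, had 448 on the terminal array, against 80.7 on the dTGR array. Each of these was low on the dTGR array, where Cdkn1a and Errfi1 were lowest of the 4 arrays, and Pdk4 was lowest with losartan (29). Hsd11b1, which regenerates active glucocorticoid inside cells, was 2.49-fold higher, and Nr3c1, the glucocorticoid receptor, 2.15-fold higher with another probe set at -0.70 on the log2 scale. Nr3c2, the mineralocorticoid receptor, was at least 2.34-fold lower, with another probe set at -0.87. Sgk1 and Dusp1, classic members of the list, had log2 differences of -0.03 and -0.34.

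**Figure D3:**
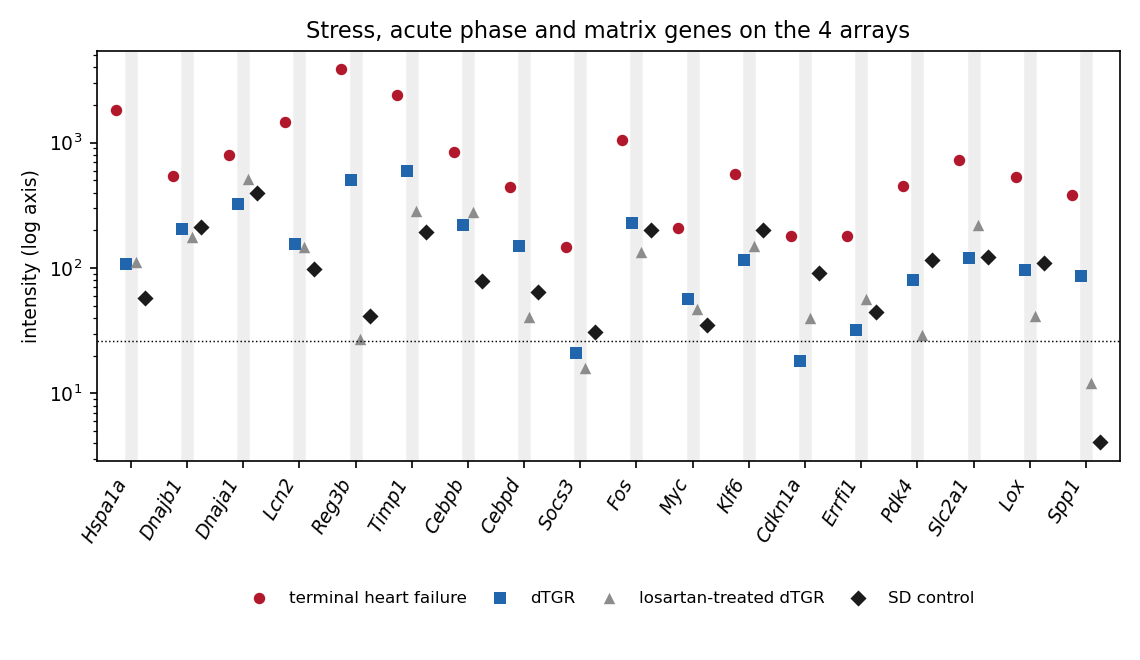
Intensity (log axis) of genes named in the text, 1 point an array, ordered terminal, dTGR, losartan-treated dTGR and SD control, with the floor of 26.0 dotted. The terminal array was highest for every gene plotted, and Spp1 lay under the floor with losartan and in SD control.

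Collagens and their processing enzymes did not move as one. Of 15 genes, 3 were higher and 2 lower, and the median was 0.09 (-0.03 after quantile normalization). Lox, the lysyl oxidase that cross-links collagen, had 530.0 on the terminal array, against 97 on the dTGR array, and its 3 other probe sets were higher by 1.30 to 2.11 on the log2 scale. P4ha1, a prolyl hydroxylase of collagen, was 2.29-fold higher, and Col5a2, a chain of the minor fibrillar collagen V, 2.74-fold higher. Col3a1, a main fibrillar collagen, had 948 on the terminal array, against 2226 on the dTGR array, with 3448 with losartan and 3811 in SD control. Its level was thus lowest in terminal heart failure and intermediate in dTGR. Col15a1, a basement membrane collagen, was 2.41-fold lower, again lowest in terminal heart failure and intermediate in dTGR. Col1a1 had 1006 on the terminal array, against 1015 on the dTGR array, no difference on the probe set used, while its 3 other probe sets were lower by log2 differences of -0.88 to -0.69, so its direction was not settled.

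Matricellular genes leaned higher. Of 28 matricellular and other matrix genes, 4 were higher and 1 was lower, and the median was 0.27 (0.28 after quantile normalization). Spp1, which encodes osteopontin, had 384 on the terminal array, against 86 on the dTGR array, and lay under the floor with losartan (12) and in SD control (4.08). It was 4.47-fold higher, and the terminal and dTGR arrays were the only ones above the floor. Sdc4, a heparan sulfate proteoglycan of focal adhesions, was 2.14-fold higher and Itgb1, the common beta integrin, 2.06-fold higher. Eln, the elastin gene, was 2.02-fold lower, and Lum, a collagen-binding proteoglycan, had a log2 difference of -0.98. Among 18 matrix proteases and inhibitors, 3 were higher, namely Timp1, Plat and Plaur, and 3 lower. Plat, the tissue plasminogen activator, had 429 on the terminal array, against 87.8 on the dTGR array, and Plaur, the urokinase receptor, was 3.17-fold higher. The lower genes Mmp23, Mmp7 and Mmp13 were dim, at 56.2 to 107 on the dTGR array and 41.1 or less on the terminal array.

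Genes of the sarcomere and of calcium handling were lower on the deposited scale. Most of this was lost after quantile normalization, which draws the brightest genes toward 0 by construction. Of 27 genes, 9 were at least 2-fold lower and 1 was higher, with a median of -0.70. After quantile normalization 3 were lower and the median was -0.16, and cyclic loess gave 3 and -0.41. The 11 cardiomyocyte markers above the floor had a median of -0.99, which was 0.04 after quantile normalization and -0.44 after cyclic loess. Actc1, the cardiac alpha-actin, had 17319.6 on the terminal array, against 44905 on the dTGR array, with 25478 with losartan and 17590.5 in SD control. Tnni3, the cardiac troponin I, had 10493 on the terminal array, against 23706 on the dTGR array, with 16952 and 12067 on the losartan and SD control arrays. The dTGR array was the high one for both, and the terminal value lay closest to that of SD control. Their log2 differences of -1.37 and -1.18 were 0.04 and -0.08 after quantile normalization. The same held for the light chains Myl2 and Myl3 and for Tnnt2, cardiac troponin T, which were 2.05-fold, 2.05-fold and 2.06-fold lower and had 0.29, 0.05 and 0.09 after it. Atp2a2, which pumps calcium back into the sarcoplasmic reticulum, had a log2 difference of -0.99 that was 0.09 after it. Its remaining 3 probe sets gave values between -0.21 and 0.85, so its direction was not settled.

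The 3 genes of this list that stood lower by 2-fold or more also after quantile normalization were Jph2, Adrb1 and Slc8a1, all dimmer than the contractile genes above. Jph2, junctophilin 2, which ties the surface membrane to the sarcoplasmic reticulum, had 752 on the terminal array, against 3012 on the dTGR array, with 1784 with losartan and 2278 in SD control. It was 4-fold lower, lowest of the 4 arrays, and had -2.02 after quantile normalization. Adrb1, the main beta-adrenergic receptor of the heart, lay under the floor with 9.08, against 116 on the dTGR array, and was at least 4.47-fold lower (-2.14 on the log2 scale after quantile normalization), with 40.3 and 55.9 on the losartan and SD control arrays. Slc8a1, the sodium-calcium exchanger, was 2.03-fold lower and had -1.10 after it, while its further probe sets spanned -2.17 to 0.92, so its direction was not settled. The higher member, Cacnb2, a subunit of the L-type calcium channel, had 73.3 on the terminal array, against 21 on the dTGR array. It was at least 2.82-fold higher and had 1.57 on the log2 scale after quantile normalization, but its other probe set was at -0.11.

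The natriuretic peptides and the fetal program lay lower than in dTGR on the deposited scale, and after quantile normalization the direction turned for the list median and for 3 of the 4 probe sets of Nppa. Nppa, the precursor of atrial natriuretic peptide, had 11731 on the terminal array, against 22028 on the dTGR array, with 5403 with losartan and 1759 in SD control. It was high on both arrays and 1.88-fold lower in terminal heart failure, with a log2 difference of -0.91 which was 0.14 after quantile normalization. The 3 further probe sets of Nppa had -0.97 to -0.64. Over all 4 probe sets the values spanned -0.07 to 0.33 after quantile normalization and -0.61 to -0.31 after cyclic loess. Nppb, the precursor of brain natriuretic peptide, had 2793 on the terminal array, against 3804 on the dTGR array. Its log2 difference of -0.45 kept its direction, with -0.39 after quantile normalization and -0.22 after cyclic loess. Of the 20 hypertrophy and fetal program genes, 1 was higher and 2 were lower, with a median of -0.26 (0.18 after quantile normalization). Flnc, filamin C of the Z disc, was the higher one (3.31-fold, from 3449 on the terminal array and 1043 on the dTGR array, its other probe set at 1.74 on the log2 scale). Fhl2, a LIM protein of cardiomyocytes, was 2.56-fold lower and lowest of the 4 arrays, with -1.23 after quantile normalization. Ankrd1, a stress-responsive sarcomere protein, was 2.41-fold lower and had -0.28 after it. Acta1 and Myh7, the skeletal alpha-actin and the beta myosin heavy chain, had log2 differences of -0.79 and -0.80, which were 0.00 and 0.36 after it. Myh6, the alpha heavy chain, had -0.88 (-0.10 after it), with other probe sets from -1.28 to 0.48. Probe sets of the myosin heavy chains share sequence, so their values may mix.

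Hormone and vasoactive genes outside the natriuretic peptides had 3 higher members. Trh, the precursor of thyrotropin-releasing hormone, had 300.2 on the terminal array, against 15.1 on the dTGR array, with 29.1 and 40.01 on the losartan and SD control arrays. It was at least 11.5-fold higher, and its second probe set was higher by 1.54 on the log2 scale. Ace, the angiotensin-converting enzyme, had 334 on the terminal array, against 128 on the dTGR array. Adm, the vasodilator peptide adrenomedullin, had 239 on the terminal array, against 107 on the dTGR array. All 3 were highest of the 4 arrays in terminal heart failure. Of the 25 genes on this list, 2 were lower, Nppc and Npr3, a natriuretic peptide and a clearance receptor, which lay under the floor on the terminal array. Among 16 ion channel and connexin genes, 2 were higher and 1 was lower, with a median of -0.28 (-0.27 after quantile normalization). Gja4, connexin 37 of the arterial endothelium, was 2.78-fold lower. Kcne1, a potassium channel subunit, was 2.74-fold higher with another probe set at -0.39, and Kcnj5, an inward rectifier subunit, stood at 2-fold (72.7 on the terminal array and 36.3 on the dTGR array).

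Glucose transporters and glycolytic isoforms stood on both sides. Of 33 genes, 2 were at least 2-fold higher and 7 lower, with a median of -0.13 (-0.09 after quantile normalization), near that of all genes. Slc2a1, the basal glucose transporter GLUT1, had 727 on the terminal array, against 120.2 on the dTGR array, and its other probe set was higher by 3.23 on the log2 scale. Slc2a4, the insulin-responsive transporter GLUT4, had 266 on the terminal array, against 724 on the dTGR array, with 839 with losartan and 1152 in SD control, and its other probe set was at -1.60. Slc2a1 was thus 6.05-fold higher and Slc2a4 2.72-fold lower, and the terminal array was the highest of 4 for Slc2a1 and the lowest for Slc2a4. Phosphofructokinase isoforms also stood on both sides. Pfkp, the platelet isoform, was 2.91-fold higher, and Pfkm, the muscle isoform, 2.12-fold lower (892 on the terminal array and 1890.4 on the dTGR array). Muscle isoforms further down the pathway were lower too, with Eno3, the muscle enolase, 2.59-fold lower and Pgam2, the muscle phosphoglycerate mutase, 2.08-fold lower. Pfkfb4, which makes the activator of phosphofructokinase, had 26 on the terminal array, against 116 on the dTGR array, and was 4.48-fold lower with the terminal value close to the floor.

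Mitochondrial fuel genes were close to the median of all genes. Of 37 fatty acid uptake and oxidation genes, 2 were higher and 3 lower, with a median of -0.19 (-0.20 after quantile normalization). Pdk4 was the largest of the higher ones, and Acot2, a mitochondrial thioesterase, was 3.54-fold higher with another probe set at -0.25 on the log2 scale. Fabp3, the fatty acid binding protein of the heart, had 6188 on the terminal array, against 15317 on the dTGR array, with 13812 and 9939.6 on the losartan and SD control arrays. It was 2.48-fold lower, lowest of the 4 arrays, and its log2 difference of -1.31 was -0.74 after quantile normalization. Of 15 tricarboxylic acid cycle genes 0 were higher and 0 lower. Of 40 respiratory chain and ATP synthase genes 1 was higher and 4 were lower, with a median of -0.36 that was -0.05 after quantile normalization. Ndufb3, a subunit of complex I, was 2.56-fold lower and had -1.21 after it, while Cox8b, a muscle subunit of complex IV, was 2.11-fold lower and had -0.04. Slc25a26, the mitochondrial carrier of S-adenosylmethionine, picked by its size and not by a list, had 240.1 on the terminal array, against 1009 on the dTGR array.

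Antioxidant genes had a median close to that of all genes and members on both sides. Of 40 genes for antioxidant enzymes, metallothioneins and heme, 2 stood higher and 4 lower, with a median of -0.18 (-0.11 after quantile normalization). Txnrd1, the cytosolic thioredoxin reductase, had 1342 on the terminal array, against 357 on the dTGR array, and its other probe set was higher by 1.43 on the log2 scale. Mgst1, a membrane-bound glutathione transferase, had 1318 on the terminal array, against 352 on the dTGR array. Both were alike on the other 3 arrays, between 352 and 482. Cat, the catalase gene, was 2.23-fold lower, Sod3, the extracellular superoxide dismutase, 2.33-fold, and Tfrc, the transferrin receptor, 3-fold. On the probe sets used, the terminal array was lowest in each. The other probe sets of Cat and Sod3 had smaller log2 differences of -0.16 and -0.37, and that of Sod3 was lowest with losartan. Gstk1, a mitochondrial glutathione transferase, was 3.65-fold lower than in dTGR, but lower still with losartan (40.2). Its other probe set had a log2 difference of -0.78 and was not low with losartan (301). On that probe set the terminal array was lowest of the 4, so the low losartan value was not settled. Hmox1, heme oxygenase 1, had 1079 on the terminal array, against 673 on the dTGR array, a log2 difference of 0.68.

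Genes of the interferon response and of antigen presentation had a median below that of all genes. Of 28 genes, 0 were at least 2-fold higher and 6 were lower, and the median was -0.57 (-0.60 after quantile normalization, -0.55 after cyclic loess). Mx1, an interferon-induced antiviral GTPase, had 41.7 on the terminal array, against 176 on the dTGR array, with 157 with losartan and 148 in SD control. Mx2, of the same family, had 32.7 on the terminal array, against 78.3 on the dTGR array. Stat2, a transcription factor of the interferon pathway, had 45.5 on the terminal array, against 118 on the dTGR array. In each of these the terminal array was lowest of the 4, and the other arrays lay between 70.5 and 176. Psmb9, a subunit of the immunoproteasome, was 2.67-fold lower, Cd74 2.07-fold, and RT1-Ba, a class II chain, 2.25-fold, with the other probe sets of Cd74 and RT1-Ba on the same side. Irf7, a regulator of interferon genes, had a log2 difference of -0.75, and B2m, the light chain of class I molecules, had 0.22. A form of the interferon response element, GAAA repeated after any 2 bases, searched on both strands, stood in 3.92% of all promoter windows, in 10 of 26 members with one and in 0 of the 5 lower members with one. Of 12 lymphocyte markers on the array, 7 lay above the floor, with 0 higher and 1 lower. Their median was -0.45, which was -0.15 after quantile normalization. The summed intensity over the 12 was 332 on the terminal array and 500.3 on the dTGR array, with 366 with losartan and 591 in SD control. Probe sets of class I and class II genes share sequence within each family.

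**Figure D4:**
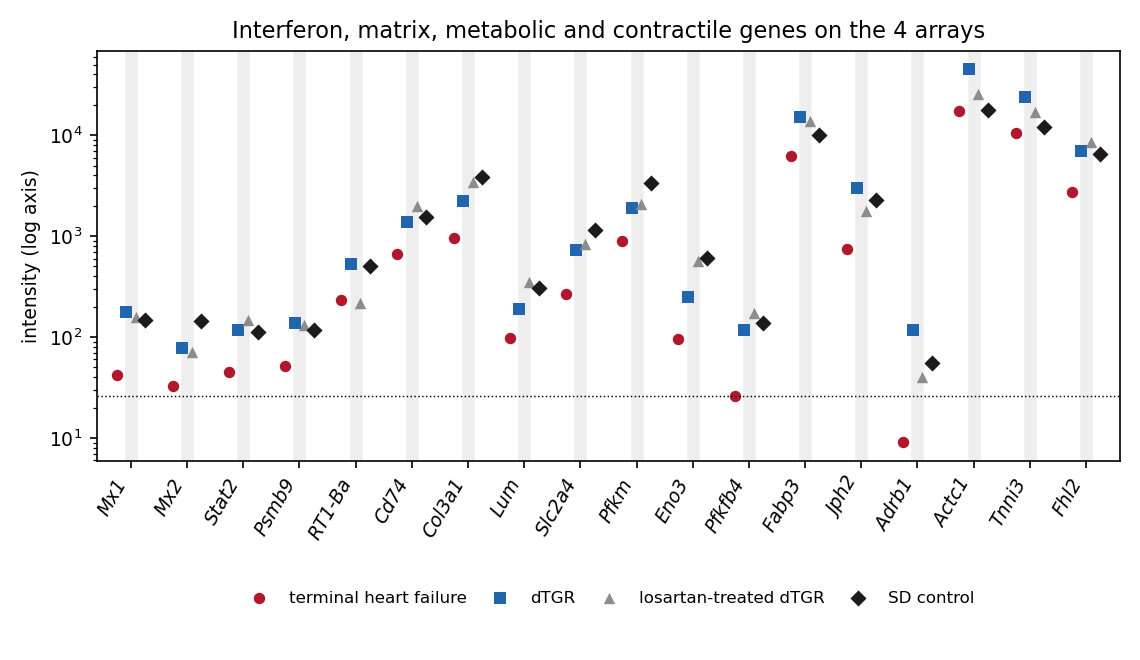
Intensity (log axis) of genes named in the text, 1 point an array, ordered terminal, dTGR, losartan-treated dTGR and SD control, with the floor of 26.0 dotted. The terminal array was lowest for every gene plotted but RT1-Ba, and the differences of Actc1 and Tnni3 from dTGR were 0.04 and -0.08 (log2) after quantile normalization.

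Cell cycle genes had a median below that of all genes and members on both sides. Of 26 genes, 3 were higher and 6 lower, with a median of -0.67 (-0.46 after quantile normalization). Ccne1, a G1 cyclin, lay under the floor with 17.1 on the terminal array, against 233 on the dTGR array, and was at least 8.96-fold lower, but its other probe set had 0.46 on the log2 scale. Ccnb1, a mitotic cyclin, was 2.63-fold lower and Foxm1, a factor that drives mitotic genes, 2.93-fold lower, both dim (63.5 and 58.8 on the terminal array). Besides Cdkn1a, the higher genes were Pcna, the clamp of DNA polymerase (3.12-fold), and Ccnd2 (2.55-fold). Pcna was 771 on the terminal array, against 247 on the dTGR array, but the losartan and SD control arrays (752 and 684) were near the terminal one, so that the dTGR array was the low one. Ccnd2 had 1636 on the terminal array, against 641 on the dTGR array, and 837 and 313 on the losartan and SD control arrays.

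Cytosolic ribosomal protein genes were above the median of all genes by a small amount. Of 37 genes, 4 were at least 2-fold higher and 0 lower, and the median was 0.26 (0.31 after quantile normalization, 0.47 after cyclic loess). The 4 higher genes were the dimmest of the list, Rpl17 (257 on the terminal array and 63.8 on the dTGR array), Rpl30 (119 and 9.01), Rps24 (323 and 133) and Rpl5 (63.2 and 29). Proteolysis genes had 1 of 40 higher and 1 lower, with a median of 0.13 that was 0.07 after quantile normalization. Ctsl, the lysosomal protease cathepsin L, had 3617 on the terminal array, against 1077 on the dTGR array, and its other probe set was higher by 1.37 on the log2 scale. Trim63, the muscle ubiquitin ligase MuRF1, was 2.52-fold lower, but its other probe set had 1.56.

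Among 8 circadian clock genes, 3 were higher and 1 was lower. Bmal1, the core activator of the clock, had 178 on the terminal array, against 58.1 on the dTGR array, with 98.7 with losartan and 147 in SD control, so the dTGR array was the low one. Its other probe set was higher by 1.31 on the log2 scale. Per2, a repressor of the clock, was at least 2.48-fold higher, and Dbp, an output factor, 2.49-fold lower with another probe set at 0.07. The sources used here do not give the hour at which hearts were taken. Apoptosis and survival genes had 0 of 18 higher and 3 lower, namely Faslg, Bid and Casp6, all at or under 37.6 on the terminal array. Their median was -0.31 (-0.29 after quantile normalization). Hypoxia and angiogenesis genes had counts near the shares over all genes (7.69% higher and 11.8% lower), with a median of -0.04 (-0.05 after quantile normalization). Of 26 genes on this list, 2 were higher, Slc2a1 and Adm, and 4 were lower. Among the lower ones, Kdr, the main receptor of vascular endothelial growth factor, had 54.6 on the terminal array, against 191 on the dTGR array, and Vegfb, a ligand of the family, was 2.46-fold lower (367 on the terminal array and 903 on the dTGR array).

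**Figure D5:**
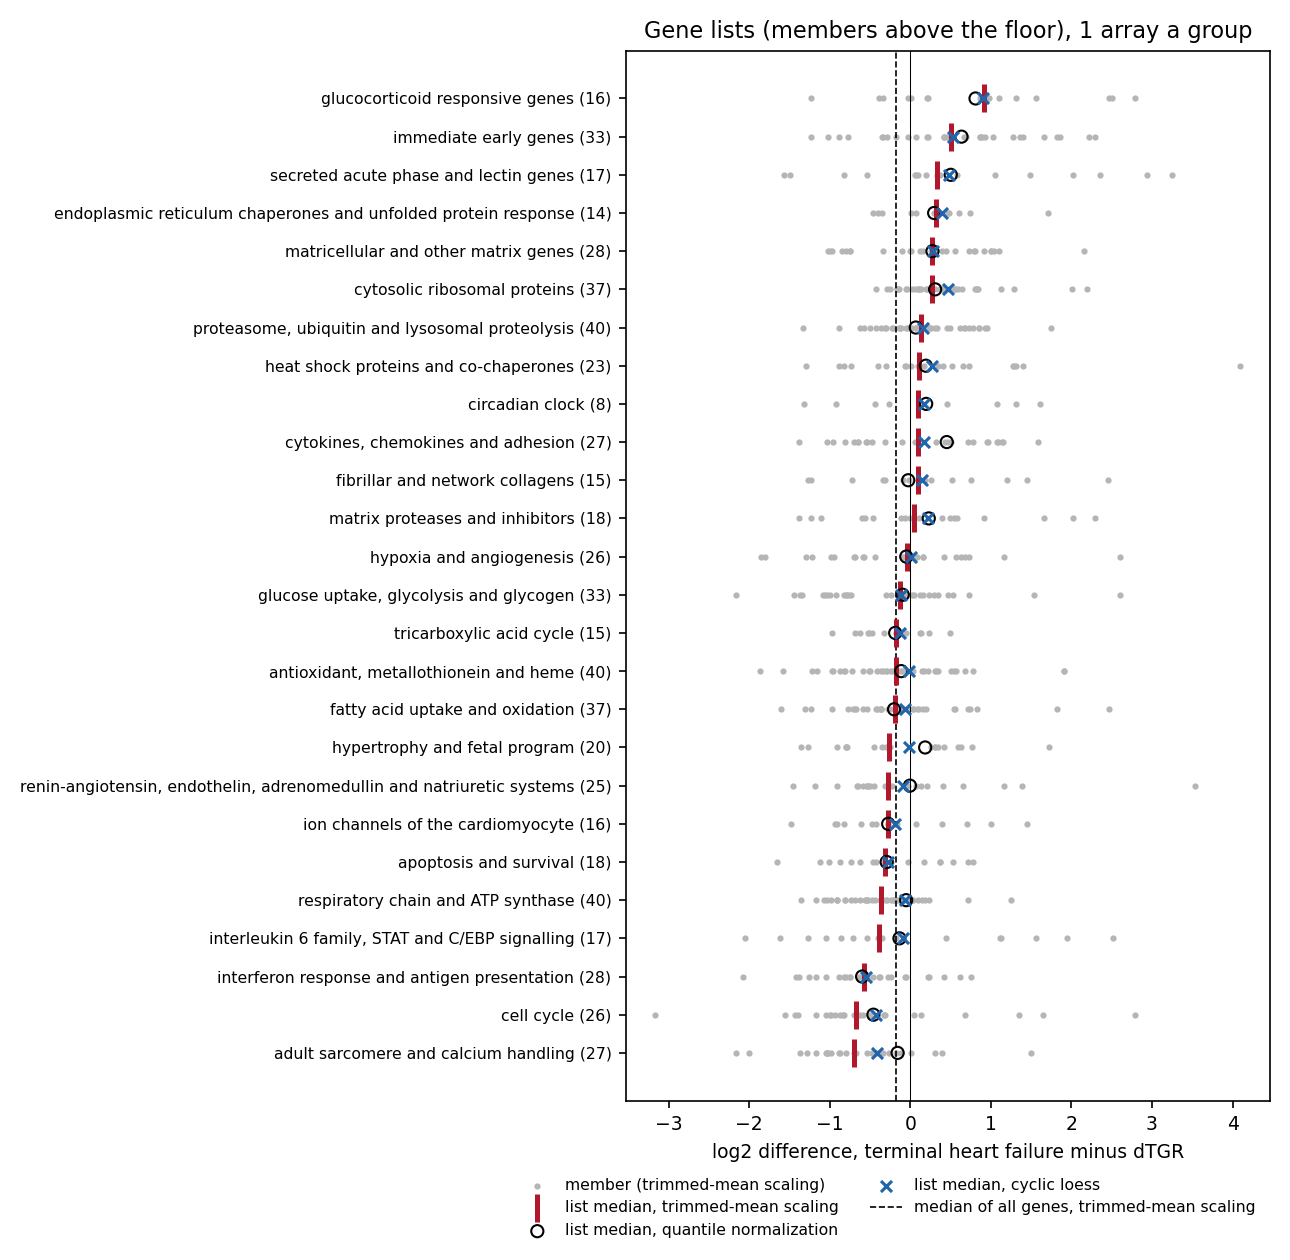
Log2 differences (terminal minus dTGR, horizontal axis) of the members above the floor of the 26 gene lists, whose number stands in brackets, with each list's median under 3 normalizations and the median of all genes (-0.18, dashed). Glucocorticoid responsive genes lie at the top (0.91) and sarcomere genes at the bottom (-0.70), and the sarcomere median shifts to -0.16 with quantile normalization.

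Among the largest lower values, the dTGR array stood alone in some genes and the terminal array in others. Of the 15 genes with the largest lower values among those above the floor on both arrays and with no probe set of the opposite sign, 11 were lowest of the 4 arrays in terminal heart failure and 10 were highest in dTGR. Trdmt1, a tRNA methyltransferase, had 41.8 on the terminal array, against 246 on the dTGR array, with 13 with losartan and 35 in SD control. Hbe2, an embryonic globin, had 39.8 on the terminal array, against 190.0 on the dTGR array, with 42.8 and 68 on the losartan and SD control arrays. For Trdmt1, Hbe2, Grk1 (4.47-fold lower) and Stc1, the secreted hormone stanniocalcin 1 (3.63-fold lower), the dTGR array was the one that departed from the other 3. That array was also the only one with its fluidics protocol. The terminal array was instead the low one for Smim5, with 46.4 on the terminal array, against 208 on the dTGR array, and 307 and 286 on the losartan and SD control arrays. It was also the low one for Mx1, Pfkfb4, Slc25a26, Jph2 and Nme6. The terminal array was likewise alone in its run day.

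Where the terminal value lay under the floor, the fold is a lower bound. Polr2a, the largest subunit of RNA polymerase II, was at least 8.15-fold lower (11 on the terminal array and 212 on the dTGR array), with 58 with losartan and 169 in SD control. Fdft1, squalene synthase of cholesterol synthesis, was at least 5.76-fold lower, but its 3 other probe sets ranged from -1.17 to 0.02 on the log2 scale. Gpam, which starts triglyceride synthesis, was at least 5.27-fold lower, with its other probe set at -1.47. Fdft1 was higher on the losartan and SD control arrays (368 and 323) than on the dTGR array (149.7). Mplkip (20.1 on the terminal array and 133 on the dTGR array) and Iglc1, an immunoglobulin light chain (1.08 and 123), were above the floor on the dTGR array alone. In the other direction, Rock2, a kinase that acts on the cytoskeleton, was at least 4.98-fold higher, with its other probe set at 1.68.

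The medians of several other cell type lists turned direction after quantile normalization. Fibroblast markers had 1 of 11 higher and 1 lower, with a median of 0.00, and 3 higher and a median of 0.19 after quantile normalization. Their sums were 23788 on the terminal array and 19561 on the dTGR array. Smooth muscle and pericyte markers had a median of -0.10, erythroid markers -0.09 and atrial markers -0.06, with 0 members past 2-fold in each, and after quantile normalization these medians were 0.14, 0.41 and 0.14. The erythroid list was bright, with sums of 21542 on the terminal array and 27246 on the dTGR array. Endothelial markers had 1 of 7 higher, Pecam1, and 1 lower, Kdr. Skeletal muscle markers had 0 of 9 past 2-fold, with a median of 0.06. After quantile normalization the median was 0.59 and 2 were higher. On the deposited scale 7 of the 15 markers lay under the floor on the terminal array, against 9 on the dTGR array. Adipocyte markers had a median of -0.53 (1 higher and 2 lower), mast cell markers -0.41 and nerve and Schwann cell markers -0.30, and after quantile normalization these were -0.45, 0.02 and -0.09. The cardiomyocyte markers were the brightest of the 13 marker lists, with summed intensities over 12 markers of 99154 on the terminal array and 205485 on the dTGR array, so the defining markers of the labelled tissue were present.

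Values of the same lists against the other arrays are set beside these, and they share the terminal array with the comparison above. For terminal heart failure against SD control, the medians were 0.87 for immediate early genes, 0.91 for glucocorticoid responsive genes, 0.84 for acute phase genes, 1.01 for macrophage markers and -0.63 for interferon and antigen presentation genes. Against losartan-treated dTGR, whose array shared the chip lot and the fluidics protocol of the terminal array but not its run day, they were 0.84, 1.18, 0.61, 1.17 and -0.28 in the same order. The SD control array shared only the protocol. Over all genes the medians were -0.14 against SD control and -0.12 against losartan-treated dTGR, so the interferon median of -0.28 lay close to that of all genes. The counts did not, since 8 of 27 interferon and antigen presentation genes were lower against losartan-treated dTGR and 1 was higher. Over all 3401 genes of that comparison, 250 were lower and 253 higher. For the sarcomere and calcium list, the median was -0.70 against dTGR, -0.54 against losartan-treated dTGR and -0.25 against SD control. For the hypertrophy and fetal program list it was -0.26, 0.52 and 0.31.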

How the data were processed

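Total RNA of rat left ventricle was measured on 4 Affymetrix rat arrays of the U34 design, set A, 1 a group, and the terminal and dTGR arrays were compared. The deposited table gives a linear intensity for each probe set, and the trimmed means of 200.2 to 200.3 on the 4 arrays show that the authors' values were already scaled. The software behind them is not given in the sources used here, nor are detection calls. The lot, fluidics protocol and run day come from the instrument records in the labels. From the 8799 probe sets, 59 controls were dropped, as were 1426 that carried no symbol and 308 that carried more than 1, so that 7006 stood for 4736 genes.

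All arrays were brought to one trimmed mean (2% off each end). Values below the 40th percentile (26.0) were raised to it before the log2 step. The probe set with the highest mean stood for a gene. The threshold was 2-fold, with no p-value because each group has 1 array. Alternatives were quantile normalization, cyclic loess, a common median, no scaling, other floors (25th and 60th percentile, none, both arrays above it), other choices of probe set, a 3-fold threshold and, added after seeing the data, low values read as 1 decimal. That last reading was tried because the values from 1 to under 32 (15281 of them) look like dates. It gave 276 higher and 424 lower genes. The named genes were the 15 largest in each direction above the floor on both arrays with no probe set of opposite sign, predicted genes left out, the 8 largest bounds in each direction, up to 6 members of each list, and a set of cardiac genes. Members, lists and rules were chosen with earlier results of these data known. Promoter windows are from RefSeq (GRCr8). R 4.3.3 with limma 3.58.1 and Python 3.11.15 were used, and the scripts were tested on simulated data.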

Additional observations from a re-analysis of the deposited data

How the results depend on the processing

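The counts of 277 higher and 426 lower genes depended on the scaling, the floor and the threshold. A common median gave 442 and 225. A floor at the 25th percentile gave 438 and 764, one at the 60th percentile 145 and 138, and no floor 610 and 1040. Genes above the floor on both arrays gave 193 and 255, and a 3-fold threshold gave 91 and 85. Under quantile normalization, cyclic loess, no scaling, 2 other choices of probe set and low values read as 1 decimal, the counts stayed within 1.5 times. Of 158 named genes past 2-fold, 85 remained past it in the same direction under every alternative that gave a value, and 5 changed direction. After quantile normalization the log2 differences were 0.040 for Actc1, 0.29 for Myl2, 0.046 for Myl3 and 0.085 for Tnnt2, and the median of the cardiomyocyte markers was 0.040. With the median of its probe sets Trim63 had 0.11. The adipocyte marker median was -0.061 with the 60th percentile as floor. The cause of these shifts was not tested. No paired analysis was possible because each group has 1 array.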

Other observations

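Kctd13, an adaptor of a ubiquitin ligase, had the largest higher value of any gene, with 2644 on the terminal array, against 125 on the dTGR array, and 106 with losartan and 44.5 in SD control. It falls outside the rule for named genes and was chosen after its values were seen. Its other probe sets ranged from -0.82 to -0.53 on the log2 scale. COX2, a mitochondrially encoded subunit of complex IV, had 7337 on the terminal array, against 21384 on the dTGR array, a log2 difference of -1.54 that was -0.74 after quantile normalization.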
